A study of Mus musculus with 3 samples.

Results

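The cells that the authors' final annotation names B cells were followed through other label columns and quality measures of the same table. The rule took each cell whose deposited cell type is B cells, which gave 198 of 12668 cells: 49 of 3544 without tumor, 114 of 5024 in LGG and 35 of 4100 in HGG. Tissue of the right hemisphere of the mouse brain, taken where cells had been injected, was digested with papain, and immune cells were enriched by positive selection for CD45, a surface protein of blood cells and microglia. They were profiled in droplets, with 1 library per group. LGG stands for low grade glioma in the labels, and HGG is used as labelled. The labelled age was 0 to 2 weeks for the no-tumor library, 3 to 4 weeks for LGG and 6 to 8 weeks for HGG. The title of the HGG library speaks of no tumor, against its description and library name, so it is the library labelled HGG throughout. Strain, injected cells and number of animals are not given in the labels used here. Tumor group, labelled age and library coincide and cannot be told apart. Differences between libraries therefore have no replicate check.

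B cells are the lymphocytes that make antibodies. They carry an antigen receptor whose signalling chain is encoded by Cd79a, and the surface protein CD20, encoded by Ms4a1. They mature in the bone marrow from pre-B to immature cells, pass through transitional stages in the spleen and then become follicular, marginal zone or, along a separate line, B1a cells, and a cell that has turned to secreting antibody is a plasma cell. Brain tissue itself holds few of them, whereas the meninges of the mouse hold B cells of several stages. The table analysed here carries no value per gene, so Cd79a and Ms4a1 could not be read and the name was checked only against other label columns, which rest on the same reads and are not independent of it. The broad label columns conflict: Cell type layer 1 calls all 198 cells Myeloid, a name on 11800 cells of the table. Cell.type.layer.1 calls all 198 B cells.

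The libraries held 32685080, 61554429 and 61872213 UMIs (unique molecular identifiers, that is, counted RNA molecules) in the order no tumor, LGG and HGG, with a median of 8826.5, 9863.5 and 12907.5 per cell. A doublet call, the mark of a droplet thought to hold more than 1 cell, was on 2.85%, 4.04% and 3.29% of all cells. Libraries shared 15 barcodes, and 1 cell of the B cell class carried such a barcode. Intervals are at the 95% level and cover counting error only. They are exact (Clopper-Pearson) for shares, Katz log intervals for ratios and order-statistic intervals for medians.

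The class fell into 2 unlike sets of cells. The first SingleR column, which names each cell by its likeness to reference profiles, gave a B cell name to 73 of the 198 cells (36.9%, 30.1 to 44.0%) and another name to 125 (63.1%, 56.0 to 69.9%). The 73 cells had a median of 5575 UMIs and carried no doublet call. The 125 cells had a median of 21464 UMIs, and 27 of them carried a doublet call. Both sets are described apart below, as B-named and other-named cells.

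The B-named cells numbered 17 without tumor, 40 in LGG and 16 in HGG. Their part of the class was 34.7% without tumor (21.7 to 49.6%), 35.1% in LGG (26.4 to 44.6%) and 45.7% in HGG (28.8 to 63.4%). The 3 intervals overlap, and a difference in this part was not tested. Of all cells of a library, the B-named cells were 0.480% without tumor (0.280 to 0.767%), 0.796% in LGG (0.569 to 1.08%) and 0.390% in HGG (0.223 to 0.633%). The other-named cells were 0.903% (0.618 to 1.27%), 1.47% (1.16 to 1.85%) and 0.463% (0.279 to 0.723%) in the same order. Over all deposited cells, both sets had their highest value in LGG and their lowest in HGG. For B-named cells this order rested on which cells were kept. With at most 5% mitochondrial UMIs their share was 0.246% without tumor (0.106 to 0.484%), 0.244% in LGG (0.117 to 0.449%) and 0.387% in HGG (0.194 to 0.692%), so that HGG was highest, with overlapping intervals. In the range of UMIs common to the 3 libraries (2985.2 to 14346.3) it was 0.494% (0.270 to 0.827%), 1.01% (0.694 to 1.43%) and 0.913% (0.512 to 1.5%), with the no-tumor library lowest. These were 14 of 2834, 32 of 3160 and 15 of 1643 kept cells.

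Set as ratios, B-named cells were 1.66 times as large a share in LGG as without tumor, with an interval that includes 1 (0.943 to 2.92). In HGG they were 0.490 times the LGG share (0.275 to 0.874) and 0.814 times the no-tumor share (0.412 to 1.61). The other-named cells gave 1.63 (1.08 to 2.46) for LGG over no tumor, 0.315 (0.190 to 0.520) for HGG over LGG and 0.513 (0.291 to 0.904) for HGG over no tumor. The whole class gave 0.617 (0.401 to 0.950) for this last ratio, while the interval of the B-named cells alone includes 1. The ratio of the whole class depended on which depths were counted, at 1.72 (0.958 to 3.10) among cells of that common range. The range kept 22 cells of the class among 1643 of the 4100 HGG cells, and 22 among 2834 of the 3544 no-tumor cells. The 2 libraries thus lost unlike parts of their other cells.

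**Figure D1:**
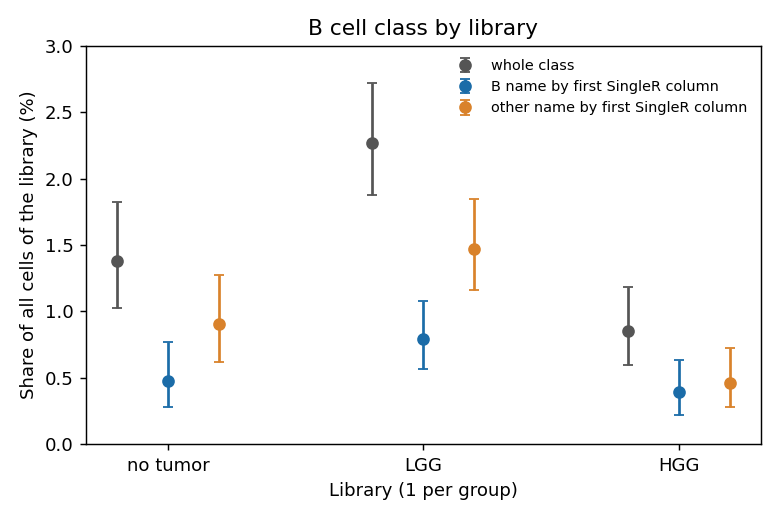
Share of all cells of a library (y axis, percent) in the B cell class, for the whole class and for its cells with and without a B cell name in the first SingleR column, by library (x axis). Points are shares and bars exact 95% intervals for counting error; the whole class stands at 1.38% without tumor, 2.27% in LGG and 0.854% in HGG, and both parts are highest in LGG.

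Against other lymphocytes the order was another one. B-named cells were set beside the cells of the T and NK classes that the same SingleR column calls T, NKT, NK, gamma-delta T or innate lymphoid cells. They made up 17 of 29 such lymphocytes without tumor (58.6%, 38.9 to 76.5%), 40 of 302 in LGG (13.2%, 9.63 to 17.6%) and 16 of 74 in HGG (21.6%, 12.9 to 32.7%). The share was lower in both tumor libraries, at 0.226 times the no-tumor share in LGG (0.148 to 0.344) and 0.369 times in HGG (0.217 to 0.627). Between LGG and HGG the interval of the ratio includes 1 (1.63, 0.969 to 2.75).

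Depth separated the 2 sets in each library. B-named cells had a median of 5268 UMIs without tumor (4747 to 7180), 6015.5 in LGG (5239 to 7135) and 4424.5 in HGG (3840 to 5710). Other-named cells had 19222 (15519 to 32180), 24426 (21335 to 28354) and 18074 (8961 to 22378), which is 3.65, 4.06 and 4.08 times as many. The median cell of the microglia class, the brain's resident macrophages, carried 8967, 8646.5 and 9072 UMIs, so that other-named cells were deeper than both. Below 10000 UMIs lay 61 of the 73 B-named cells and 20 of the 125 other-named cells. The ranges nevertheless overlap, from 1621 to 37662 UMIs among B-named cells and from 580 to 95962 among other-named cells.

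Genes per cell and, over the libraries together, mitochondrial share differed along with depth. The median B-named cell had 1793 genes (1617 to 1917) and the median other-named cell 4310 (4058 to 4579). The mitochondrial share of UMIs was 5.40% (4.96 to 5.76%) in B-named cells and 3.69% (3.48 to 3.91%) in other-named cells, against 2.75% in the microglia class. A limit of 5% mitochondrial UMIs would keep 8 of 17 B-named cells without tumor, 10 of 40 in LGG and 11 of 16 in HGG. It would keep 28 of 32, 59 of 74 and 14 of 19 other-named cells. The part of the class named B cells in LGG falls to 14.5% (7.17 to 25.0%) under that limit. The deposited ribosomal percentage, whose gene pattern is not stated, had medians of 0.463% and 0.394%. In HGG the order was the other way, at 0.410% and 0.425%.

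**Figure D2:**
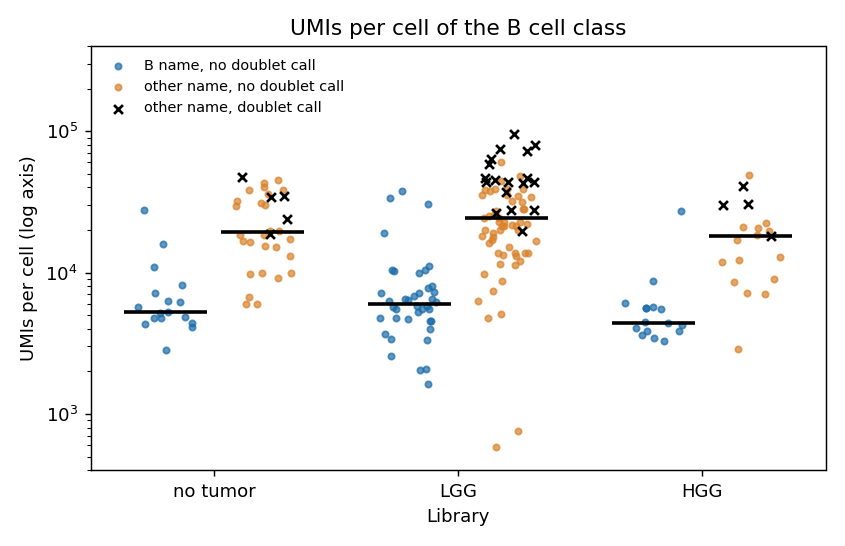
UMIs per cell (y axis, log scale) of the 198 cells of the class by library (x axis), split by the first SingleR name; points are cells, crosses mark doublet calls and horizontal lines are medians. The medians of B-named cells lie between 4424.5 and 6015.5 and those of other-named cells between 18074 and 24426, and all 27 crosses are other-named cells.

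Within the class, all doublet calls lay on other-named cells. They were on 5 of 32 such cells without tumor (15.6%, 5.28 to 32.8%), on 18 of 74 in LGG (24.3%, 15.1 to 35.7%) and on 4 of 19 in HGG (21.1%, 6.05 to 45.6%). Over the 3 libraries 20 were of high and 7 of low confidence. Among B-named cells the count was 0 of 73, which allows a share of up to 4.11%. Cells outside the class carried a call in 3.30% (3.00 to 3.63%). Restricted to cells of at least 10000 UMIs, the share was 27 of 105 other-named cells (25.7%, 17.7 to 35.2%), 0 of 12 B-named cells, which allows up to 25%, and 6.73% (6.11 to 7.39%) of 6036 cells outside the class. The shallowest called cell of the class had 18074 UMIs, while the 90th percentile of B-named cells was 11062. Most B-named cells were thus shallower than any called cell of the class. Whether calls differ between the sets at equal depth was not tested. The other-named cells without a call were deep too, with a median of 19444 UMIs over 98 cells. What share of these 98 cells holds the RNA of more than 1 cell, or free RNA of other cells, was not tested.

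The T cell class without a finer name split in a like way. Its 115 cells with a T, NKT, NK, gamma-delta T or innate lymphoid name had a median of 7339 UMIs (6256 to 8256) and 5 doublet calls (4.35%, 1.43 to 9.85%). Its 265 cells that the first SingleR column calls microglia had a median of 21573 UMIs (20640 to 23146) and 70 doublet calls (26.4%, 21.2 to 32.2%). The 81 microglia-named cells of the B cell class stood at 21335 UMIs (18738 to 26145), with 21 doublet calls.

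Microglia was the commonest name among the 125 other-named cells, with 27 of 32 without tumor, 41 of 74 in LGG and 13 of 19 in HGG. Macrophages followed with 16 cells and dendritic cells with 13, of which 12 were in LGG. The other 15 cells carried names of T, NKT, NK, gamma-delta T, innate lymphoid, monocyte, neutrophil, eosinophil and mast cells. The 2 eosinophil-named cells were shallow, with a median of 667 UMIs.

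How many labels named a cell B was counted over 6 columns: both SingleR columns, scANVI, both VHove columns and the combined cell label. The first SingleR column, which defines the split, is 1 of the 6. A B-named cell therefore counts at least 1 and an other-named cell cannot reach 6. A B cell name in all 6 was found for 58 of the 73 B-named cells, and in 5 for another 11. Of the 73, the second SingleR column named 72 B cells, scANVI 58, the first VHove column 71, the second 72 and the cell label 69. Of the 125 other-named cells, 51 had a B cell name in none of these 6 columns and 40 in 1. The scsa marker-list columns and the column final_celltype were not among the 6. Each of them named all 73 B-named cells and 116 of the 125 other-named cells B cells. Full agreement held for 16 cells without tumor, 29 in LGG and 13 in HGG, which is most B-named cells of each library (17, 40 and 16). Median depth was 5542.5 UMIs for the 58 cells named B by all 6 columns and 27572 for the 51 cells named B by none. Doublet calls were on 0 of those 58 cells, which allows up to 5.17%, and on 15 of those 51 (29.4%, 17.5 to 43.8%).

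**Figure D3:**
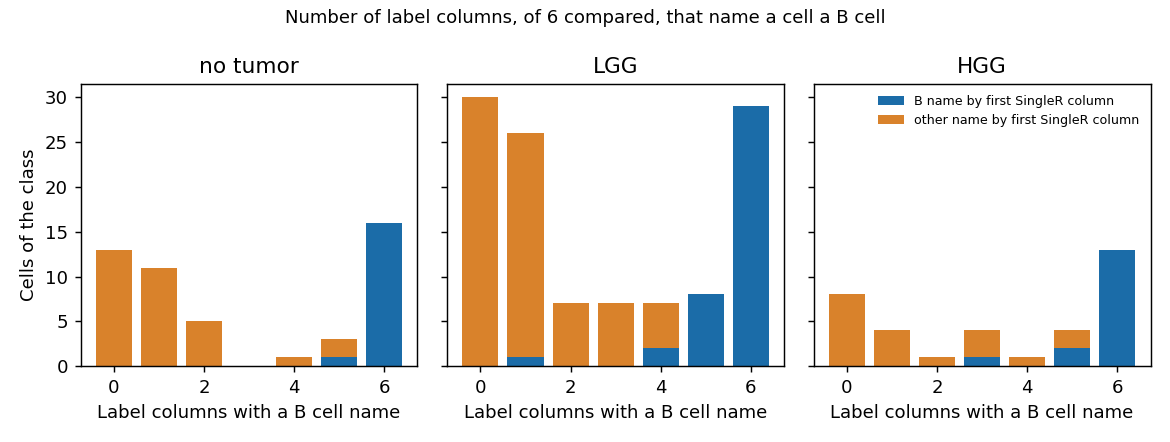
Number of cells of the class (y axis) by how many of 6 label columns give a B cell name (x axis), in 1 panel per library, with color for the first SingleR name. Cells gather at both ends, with 58 cells named B by all 6 columns and 51 named B by none. The column that sets the color is among the 6, so the colors at both ends were fixed in advance.

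Some other-named cells also kept a B cell name within the 6 columns. The second SingleR column named 31 of the 125 B cells, the first VHove column 26, the second VHove column 39, the combined cell label 40 and scANVI 8. The 20 shallow other-named cells, those under 10000 UMIs, were named B cells in 10 cases by the second SingleR column and in 13 by the second VHove column. Doublet calls were on 0 of the 20, which allows up to 15%, and on 0 of the 61 B-named cells under 10000 UMIs. Conversely, few cells outside the class bore a B cell name in the first SingleR column, 3 of its 76 such cells, or in scANVI, 6 of 72. The second VHove column spread the name most widely, to 259 cells, of which 111 lay in the class, 52 among immature erythrocytes and 40 in the class named Int Mo/Mac. The second SingleR column placed 31 of its 138 B cell names in the Int Mo/Mac class.

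Only at resolutions 4.5 and 5, the finest, did the authors' clusters draw nearly the same line. At resolution 0.4, for one, all 73 B-named and 116 other-named cells shared a cluster. At 13 of the 22 clustering resolutions all 198 cells sat in a single cluster, and at the finest they split into clusters of 129 and 69 cells. The smaller cluster held 61 of the 73 B-named cells (83.6%, 73.0 to 91.2%) and 8 of the 125 other-named cells (6.40%, 2.80 to 12.2%). Its median depth was 5679 UMIs, against 22127 in the larger. Clusters and SingleR names are built from the same expression values, so that this match is a description of the class and no independent check.

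The stage of the B-named cells, by the fine names of the first SingleR set, was most often transitional, on 32 of the 68 cells with a B cell fine name. These 68 were 16 cells without tumor, 36 in LGG and 16 in HGG. Transitional names (T1, T2 and T3) were on 11 of 16 cells without tumor (68.8%, 41.3 to 89.0%), 15 of 36 in LGG (41.7%, 25.5 to 59.2%) and 6 of 16 in HGG (37.5%, 15.2 to 64.6%). The share was highest without tumor, with overlapping intervals. It counts 3 names together, whereas follicular is a single name. The commonest of them, T3, was on 6 cells without tumor, 7 in LGG and 3 in HGG. In HGG the follicular name was on 4 cells, and in LGG B1a names were on 7. Pre-B names, of precursors still without a complete receptor, were on 1, 2 and 1 cells, and names of immature cells on 1, 3 and 1.

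Follicular names, of the recirculating cells of lymphoid follicles, were on 1 cell without tumor, 4 in LGG and 4 in HGG. B1a names, of the self-renewing cells known from body cavities, were on 7 of 36 cells in LGG (19.4%, 8.19 to 36.0%), 2 of 16 in HGG (12.5%, 1.55 to 38.3%) and 0 of 16 without tumor, which allows a share of up to 18.8%. With so few cells no difference in B1a names was read, and none was tested. The name of mature recirculating cells (fraction F) was on 2 cells without tumor and on 0 of 36 and 0 of 16 in LGG and HGG, which allows up to 8.33% and 18.8%. A marginal zone name was on 1 cell, in LGG.

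**Figure D4:**
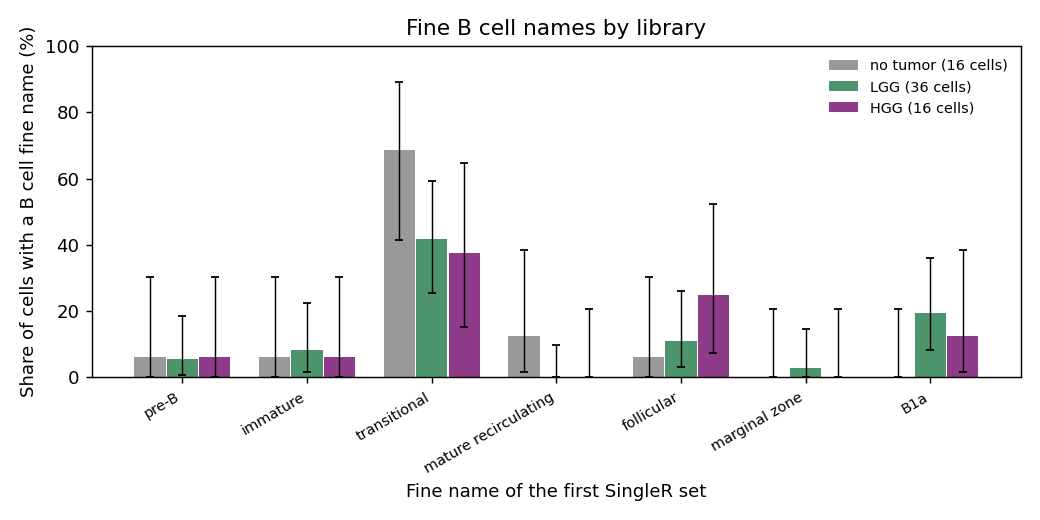
Share (y axis, percent) of 7 stages by fine B cell name (x axis) among the B-named cells with such a name, in each library. Bars are shares and error bars exact 95% intervals for counting error. Transitional names (T1, T2 and T3 together) are the most frequent in all 3 libraries, at 68.8% without tumor, 41.7% in LGG and 37.5% in HGG. In HGG the follicular name, on 4 cells, was ahead of T3 alone, on 3.

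A second fine label sorts B cells by experience of antigen, into naive, memory and class-switched memory cells. Among B-named cells it gave 32 naive, 27 memory and 10 class-switched names. Naive names were on 8 of 17 cells without tumor (47.1%, 23.0 to 72.2%), 16 of 37 in LGG (43.2%, 27.1 to 60.5%) and 8 of 15 in HGG (53.3%, 26.6 to 78.7%). The 3 shares lie within one another's intervals. Over the whole class the naive share was 65.5% without tumor (45.7 to 82.1%), 42.9% in LGG (29.7 to 56.8%) and 62.5% in HGG (40.6 to 81.2%). Of the 26 naive names on other-named cells, 25 lay on cells that the first SingleR column calls microglia. The median naive cell of the whole class had 15826 UMIs without tumor, 6355 in LGG and 6111 in HGG, against 5016.5, 5374 and 4980.5 among B-named cells.

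The 2 fine labels did not divide the cells along the same lines. Of 33 cells of the class with a transitional name, 17 were naive in the second label, 13 memory and 3 class-switched memory. Of 9 follicular names, 7 were memory, 1 class-switched and 1 naive. No order between stages or libraries was read from these names.

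Plasma cell names were rare, on 5 of the 198 cells in at least 1 of the 6 columns and on 3 in more than 1. A single cell, in HGG, had a plasma name in 3 columns (scANVI, the first VHove column and the cell label) and was also called a B cell by both SingleR columns, with 27256 UMIs from 2839 genes and no doublet call. A second HGG cell with 49186 UMIs had 2 plasma names and was otherwise called a dendritic cell or monocyte. In the no-tumor library 1 cell with 6028 UMIs had 2 plasma names beside 2 microglia names, and another with 35750 UMIs had 1. In LGG 1 cell with 60804 UMIs had 1 plasma name beside 4 T cell names. The B-named plasma cell was the only 1 of 73 B-named cells with such a name.

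Dendritic cell names, of the antigen-presenting cells that share class II MHC genes with B cells, were on 38 cells of the class in at least 1 column: 3 of 49 without tumor, 31 of 114 in LGG and 4 of 35 in HGG. They lay on 29 of 125 other-named cells, with a median of 35163 UMIs and 8 doublet calls, and on 9 of 73 B-named cells, with a median of 6502 UMIs and 0 doublet calls. All 9 of the latter came from scANVI alone, which called 8 of them DC1 and 1 DC2. In 2 or more columns the dendritic name was on 16 cells, 15 of them in LGG, and all other-named. Whether dendritic names were also more frequent over all cells of the LGG library was not tested.

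T or NK names on cells of the class were likewise most frequent in LGG, on 31 of 114 cells there, 2 of 49 without tumor and 1 of 35 in HGG. In LGG they were on 27 of 74 other-named cells, with a median of 34722 UMIs, and on 4 of 40 B-named cells. Names of macrophages, monocytes, microglia or border associated macrophages, counted together, were on 31 of 32 other-named cells without tumor, 58 of 74 in LGG and 19 of 19 in HGG. Among B-named cells they were on 2 of 73, both in LGG. T and NK lymphocytes, as defined above, numbered 262 in LGG (5.21% of all its cells), 58 in HGG (1.41%) and 12 without tumor (0.339%). Their part in the T and NK names on cells of the class was not tested.

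Few cells of the class had a high cell cycle score. The phase call is G1 exactly where both the S and the G2M score are at most 0, in 12668 of 12668 cells, so that a slightly positive score is enough for another phase. By that call 59 of 73 B-named cells lay outside G1 (80.8%, 69.9 to 89.1%), 59 of 125 other-named cells (47.2%, 38.2 to 56.3%) and 32.3% of the microglia class (31.2 to 33.4%). The median S score of B-named cells was 0.0063 and the median G2M score 0.0056, against -0.0176 and -0.0253 in other-named cells. Among cells under 10000 UMIs, 83.6% of 61 B-named cells (71.9 to 91.8%) and 50% of 20 other-named cells (27.2 to 72.8%) lay outside G1. At 10000 UMIs or more, 66.7% of 12 B-named cells (34.9 to 90.1%) and 46.7% of 105 other-named cells (36.9 to 56.7%) did. Over all libraries together, B-named cells had the higher value in both ranges of depth, with intervals that overlap in each. In the shallower range they overlap only from 71.9 to 72.8%. Of the 12 deep B-named cells, 8 were in LGG, and the 1 in HGG lay in G1. Scores of shallow cells rest on few UMIs and could not be brought to a common depth without values per gene, so the phase calls were not read as cycling. T cells with a T or NK name, with a median of 7339 UMIs, lay outside G1 in 82.6% (74.4 to 89.0%).

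A score above 0.2, a limit chosen after the values were seen, was passed by 10 cells of the class (5.05%, 2.45 to 9.09%), by 0.217% of the microglia class (0.121 to 0.357%) and by 12 of 115 T cells with a T or NK name (10.4%, 5.51 to 17.5%). Over the libraries together, the share of the B cell class was thus above that of microglia and not above that of these T cells. Without tumor it was 0 of 49, beside 7 of 2877 microglia. Cells above the limit had a median of 24872.5 UMIs in the class and 8841 in microglia. Of B-named cells under 10000 UMIs, 1 of 61 passed the limit. A part of depth in this contrast was not tested. Within 0.05 of the limit lay 4 cells of the class. Of the 10 cells, 8 were in LGG, 2 in HGG and 0 of 49 in the no-tumor library, which allows a share of up to 6.12% there. B-named cells were 4 of the 10. The highest G2M score of the class, 0.998 beside an S score of 0.465, was on an LGG cell of 33573 UMIs with the pre-B name of fraction C, the large dividing precursors of marrow, and a naive name in the second label. Another LGG cell of 19141 UMIs with a B1a name had an S score of 0.383. An LGG cell with an S score of 0.450 and 30563 UMIs was a B cell by the main SingleR column and a regulatory T cell by the fine one. The last of the 4 was an HGG cell of 5710 UMIs with a B1a name and a G2M score of 0.247. Of the 6 other-named cells above the limit, 3 carried a doublet call, with 43958, 79298 and 95962 UMIs.

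**Figure D5:**
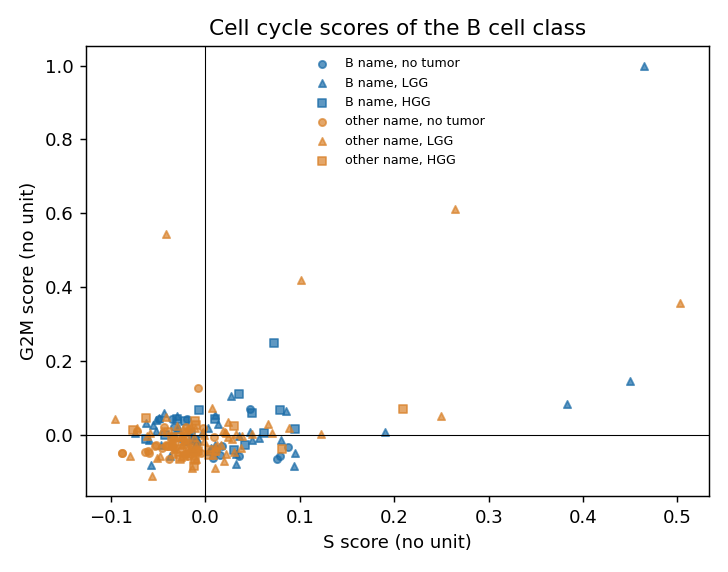
S score (x axis) and G2M score (y axis), both without unit, of the 198 cells of the class, with color for the first SingleR name and marker shape for the library. Most cells lie near 0 on both axes, and 10 cells, 8 of them from LGG, exceed 0.2 on either.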

How the data were processed

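Per the labels' protocols, Cell Ranger 3.0.2 mapped the reads to the mm10 build and quantified them. The submitters' processing notes also name Seurat 4. For the authors' cell filter and doublet caller, the setting and tool were not given in the sources used here; the deposited cells start at 501 UMIs and 201 genes and end at 9.97% mitochondrial UMIs. The authors deposited, per the file headers, a count of UMIs and of genes per cell, the percent of mitochondrial and ribosomal UMIs, S and G2M score values, UMAP positions, clusters, labels and doublet calls. Of 64 columns, 57 were mapped and 7 not used. With no value per gene, UMIs were not thinned and the markers fixed in the design were not read. Cells went to groups through their library name. Depth is the total of UMIs per library and cell. With 1 library per group no test was made and no p-value computed. A fine B cell name that counts in the totals is not reported here. Shares of 0 were given the limit of 3 counts. The members, lists and the split were chosen with earlier results of these data known. Named classes for comparison were T cells and microglia, by the rule of the design. Alternatives were doublet calls, minimum UMIs (1000) and genes (500), 5% mitochondrial UMIs, the top 5% of cells, a common depth range (highest 10th to lowest 90th percentile), denominators, 13 label columns, other splits and, added after the data were seen, shared barcodes. The limits of 10000 UMIs and of a score of 0.2 were also set after the data were seen. Python 3.11.15 with pandas 2.3.3 and scipy 1.17.1 was used.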

Additional observations from a re-analysis of the deposited data

How the results depend on the processing

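A share, median or ratio counted as moved when it left the 95% interval of the reported value, and a ratio as reversed when it crossed 1. Of 66 values for the share of the class, 32 moved. Without the deepest 5% of cells the share was 0.862% without tumor and 1.78% in LGG, and in the common depth range 0.776% and 1.49%, with 1.34% in HGG. At most 5% mitochondrial UMIs gave 1.69% in LGG. Of lymphoid classes the share was 56.3%, 17.6% and 22.0%, and of cells other than microglia 7.35%, 4.54% and 1.97%, in the order no tumor, LGG and HGG. In that order, scANVI gave 0.564%, 0.736% and 0.366%, the first SingleR column 0.508%, 0.816% and 0.415%, and the first VHove and PAntunes columns 0.705%, 1.29% and 0.463% each. The second SingleR column gave 0.621% and 1.71%, its fine names 0.677% and 1.61%, and the cell label 0.818% and 1.29%, without tumor and in LGG. The second VHove column gave 3.07% in LGG and 1.39% in HGG.

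Of 66 ratios of these shares, 7 reversed and 6 moved. LGG over no tumor was 0.312 among lymphoid classes and 0.618 without microglia, and 2.76 and 2.38 with the second SingleR column and its fine names. HGG over LGG was 0.90 in the common depth range and 1.25 among lymphoid classes. HGG over no tumor was 1.72 in the common depth range, 1.18 and 1.12 with the second SingleR column and its fine names, 1.03 with the second VHove column, 0.983 without the deepest cells, 0.391 among lymphoid classes and 0.269 without microglia. The cause was not tested.

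The B-named part of the class rose where deep cells were left out, by the construction of these alternatives: to 55.2% without tumor and 44.7% in LGG without the deepest 5%, and to 63.6%, 68.1% and 68.2% in the common depth range. It was 14.5% in LGG at most 5% mitochondrial UMIs. Of all cells, B-named cells were then 0.246% without tumor, 0.244% in LGG and 0.387% in HGG, which puts HGG highest, and in the common depth range 0.494%, 1.01% and 0.913%, which puts the no-tumor library lowest. Median UMIs of cells with a B cell name were 8104 without tumor when split by the cell label, and 7171 and 7293 in LGG when split by the second SingleR and second VHove columns. Leaving out doublet calls, cells under 1000 UMIs or 500 genes, or shared barcodes moved no share of the class and no ratio. Leaving out doublet calls did move the median genes of other-named cells in LGG, from 4488.5 to 4066. Of 36 alternative medians for each measure, 5 moved for genes, 2 for mitochondrial share and 1 for ribosomal share. Neither scores nor phase shares left their intervals. The numbers of 16 to 40 B-named cells per library limit every share of a fine name.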
